A study of Mus musculus with 4 samples.

Results

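The 10 genes studied here encode enzymes, and their partners, that write or erase marks on histones, and are 10 of the 21938 protein-coding genes annotated. They are *Ezh1*, *Ezh2*, *Eed*, *Suz12*, *Kdm1a*, *Hdac1*, *Hdac2*, *Crebbp*, *Ep300* and *Kmt2d*, chosen by name for their function, with earlier results of these data known. For each gene, the peaks in its body and in 20 kb on each side were taken, with gene positions from GENCODE M21 on mm10, which gave 913 kb of sequence in all. The assay was ATAC-seq, in which a transposase inserts into accessible DNA, so that a peak marks open chromatin. There were 4 libraries, 1 from each of 4 untreated mouse cell lines, 2 SMC lines and 2 non-SMC lines, each numbered 1 and 2. All came from lung tumors of the *RP* model of small cell lung cancer, in which Cre deletes *Rb1* and *Trp53* (*Rb1* L/L, *Trp53* L/L), on a mixed genetic background of C57Bl/6, Balb-c and S129, and both types therefore share these deletions. SMC, the metastasizing cells, were sorted as NCAMhi CD44lo/- and non-SMC as NCAMlo CD44hi, and both were grown in RPMI1640 with serum. Each line gave 1 library, so the 2 lines of a type give the spread between lines and no more. The comparison asks whether these loci were open in the same way in both cell types.

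Polycomb repressive complex 2 (PRC2) methylates lysine 27 of histone H3, a mark of silenced genes, through its catalytic subunit EZH2 or EZH1, and needs EED and SUZ12. KDM1A, also called LSD1, removes methyl groups from lysine 4 of histone H3 and works in the CoREST complex with the deacetylases HDAC1 and HDAC2, which also act in the NuRD and SIN3 complexes. CREBBP and EP300 are paralogous acetyltransferases that place the acetyl mark of active enhancers on lysine 27, and KMT2D methylates lysine 4 at enhancers. Loss or inhibition of several of them is studied in small cell lung cancer, where *CREBBP*, *EP300* and *KMT2D* are recurrently mutated in patients. ATAC-seq of their loci shows where regulatory DNA was accessible, not how much protein was made.

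The peak lists of SMC lines 1 and 2 held 91118 and 154039 peaks, and those of non-SMC lines 1 and 2 held 115909 and 128788. The depths implied by their background were, in this order, 8.36 M, 29.4 M, 23.5 M and 10.4 M reads, which assume the preset mouse genome size of the peak caller and the shortest peak as the fragment length. Line 1 is therefore the shallower SMC line and line 2 the shallower non-SMC line. *Chga*, a neuroendocrine gene, had peaks within 3 kb of the TSS in both SMC lines but not in non-SMC, whereas *Insm1*, *Ncam1* and *Syp* also had promoter peaks in non-SMC. For the mesenchymal genes, promoter peaks were present in both non-SMC lines, and also in SMC line 2 for *Cd44* and in both SMC lines for *Vim*. Past a −log10 q of 5, those of *Cd44* and *Vim* were seen in both non-SMC lines and in no SMC line, and those of *Chga* in the SMC lines alone. At that threshold *Ncam1* still had promoter peaks in all 4 libraries, and *Insm1* and *Syp* had one in SMC line 2 only. With 2 libraries per type no exact two-sided permutation test can go below p = 0.333, so no test was made between the types, and all counts below are descriptions. Fold enrichment, the summit pileup over the local background of the same library, depends on depth. A peak is therefore also given by its percentile, which is its rank by fold enrichment in the list of its own library.

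The 10 windows held 51 and 93 peaks in SMC lines 1 and 2, and 72 and 67 in non-SMC lines 1 and 2. As a share of the whole list this was 0.0560% and 0.0604% for SMC and 0.0622% and 0.0521% for non-SMC. The share was 0.0582% ± 0.00311 in SMC and 0.0571% ± 0.00714 in non-SMC (SD, n = 2 lines each), a difference of 0.00110 percentage points that was smaller than the spread between lines of a type. A median member had 4.50, 9.50, 6.50 and 6.0 peaks in the 4 libraries in this order, beside 4, 6, 5 and 5 for a median protein-coding gene.

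A promoter peak, within 3 kb of the TSS, was present in all 4 libraries at 9 of the 10 genes, beside 48.7% of all protein-coding genes. *Kdm1a* was the exception. The lists also hold calls of low significance. In SMC line 1 the highest promoter peak had a −log10 q of 0.230 at *Kmt2d* and 0.353 at *Ezh1*. No promoter was SMC-only, open in the SMC pair of lines but in no non-SMC line, and none was non-SMC-only, the opposite pattern. Among all genes these patterns took 3.08% and 2.45% of promoters. The TSS itself lay under a peak in all 4 libraries at *Ezh2*, *Suz12*, *Hdac1* and *Hdac2* (4 of 10), beside 26.2% of all genes. When peaks below a −log10 q of 5 were left out, the promoters of *Ezh2*, *Suz12* and *Crebbp* (3 of 10) kept a peak in every library, beside 21.4% of all genes. Thinning to a common depth left 5 of the 10 promoters with a peak in all 4, beside 32.9% of all promoters.

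**Figure D1:**
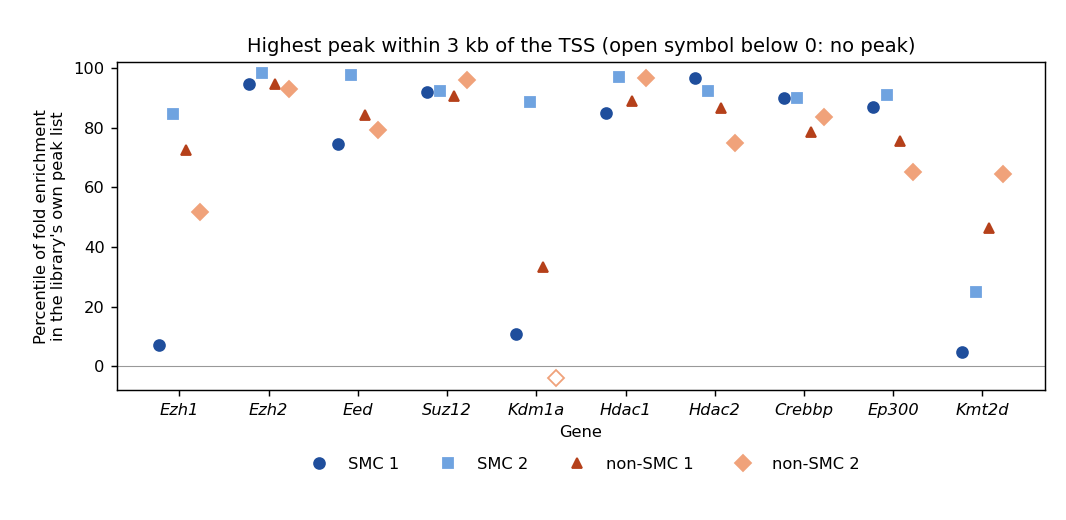
The percentile of the highest peak within 3 kb of the TSS is plotted for each of the 10 genes and 4 libraries, with an open symbol below 0 where no peak was called. *Ezh2* and *Suz12* lay above the 90th percentile in all 4 libraries, whereas *Ezh1*, *Kdm1a* and *Kmt2d* fell below the 15th in SMC line 1.

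Of the PRC2 genes, *Ezh2* and *Suz12* had the most evenly high promoter peaks and *Ezh1* the most uneven one. *Ezh2* (chr6:47530139-47595341, minus strand) encodes the main catalytic subunit of dividing cells. Its highest promoter peak had a fold enrichment of 8.23 and 11.6 in SMC lines 1 and 2 and of 12.3 and 8.61 in non-SMC lines 1 and 2. These peaks stood at percentiles 94.8, 98.6, 94.9 and 93.1 of their lists, and the percentiles of the SMC and non-SMC lines overlapped. *Ezh1* (chr11:101191115-101226463, minus strand) encodes the paralog typical of resting cells. Its promoter peak had a fold enrichment of 2.47, 5.00, 5.83 and 3.29 in the same order, at percentiles 7.01, 84.8, 72.5 and 51.7. The percentiles of the 2 SMC lines lay on both sides of those of the non-SMC lines, and the lowest came from the shallowest library, where the summit pileup was 3.

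*Suz12* (chr11:79993106-80034123, plus strand) encodes the subunit that holds the complex together. Its TSS peak reached 7.22, 6.92, 10.3 and 10.2, at percentiles 92.2, 92.4, 90.8 and 96.0, again with no separation of the types by percentile. *Eed* (chr7:89954654-89980983, minus strand) encodes the subunit that binds the mark itself. Its highest promoter peak reached 4.45, 10.5, 8.25 and 5.26, at percentiles 74.7, 97.9, 84.5 and 79.2. For non-SMC line 1 this was a separate peak, 502 bp inside the gene. In the region at the TSS that every library shared, non-SMC line 1 had 4.87 (percentile 65.7), below the shallower non-SMC line 2. The deeper library was thus the higher there in SMC but not in non-SMC. In SMC line 1 and non-SMC line 1 the highest promoter peak did not cover the annotated TSS, but the weaker peak of non-SMC line 1 did. The DNA just upstream of the *Suz12* start, shown because that promoter was open in every line at both peak thresholds, held none of the motifs searched, which are spelled out below, and the RefSeq window around that start had a ratio of observed to expected CpG of 1.09. It lies at chr11:79992856-79993105 on the plus strand of GRCm38.p6 (RefSeq).
*Suz12* promoter: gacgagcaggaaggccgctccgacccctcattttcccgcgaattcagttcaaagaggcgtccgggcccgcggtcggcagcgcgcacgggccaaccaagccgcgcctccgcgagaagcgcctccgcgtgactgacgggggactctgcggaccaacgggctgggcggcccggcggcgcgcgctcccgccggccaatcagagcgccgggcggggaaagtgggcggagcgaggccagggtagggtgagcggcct

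*Kdm1a* (chr4:136550540-136602723, minus strand) was the only member with no peak near the 5′ end of the gene in one of the libraries. This did not hold when the TSS of every transcript was counted. The introns of *Kdm1a* held 2 of the 7 non-SMC-only regions described below. SMC line 1 had no peak at the TSS and its highest promoter peak, 2665 bp inside the gene, had a fold enrichment of 2.62 and a percentile of 10.9. SMC line 2 had a TSS peak of 5.81 (percentile 88.7), non-SMC line 1 one of 3.11 (percentile 33.2), and non-SMC line 2 had no promoter peak. The lines without a TSS peak were the shallower line of each type, and after thinning to a common depth *Kdm1a* had no promoter peak in any of the 4 libraries. *Hdac1* and *Hdac2*, by contrast, had a TSS peak in every library before thinning. After thinning *Hdac2* kept a promoter peak in every library, but *Hdac1* had none in SMC line 2. *Hdac1* (chr4:129516104-129542713, minus strand) reached 5.58, 9.54, 9.68 and 10.8 in the 2 SMC and then the 2 non-SMC lines, at percentiles 85.1, 97.0, 89.2 and 96.9. *Hdac2* (chr10:36974544-37001889, plus strand) reached 9.30, 7.0, 8.88 and 4.74, at percentiles 96.7, 92.5, 86.8 and 74.9. At *Hdac2* both SMC lines ranked above both non-SMC lines by percentile, although the fold enrichments of the types overlapped. The upstream sequences of *Hdac2*, open in all lines, and of *Kdm1a*, where a TSS peak was missing in SMC line 1 and non-SMC line 2, are shown 5′ to 3′ on the strand of the gene. The first lies at chr10:36974294-36974543 on the plus strand and the second at chr4:136602724-136602973 on the minus strand of GRCm38.p6 (RefSeq), with a match to the RUNX letters TGTGGT in capitals.
*Hdac2* promoter: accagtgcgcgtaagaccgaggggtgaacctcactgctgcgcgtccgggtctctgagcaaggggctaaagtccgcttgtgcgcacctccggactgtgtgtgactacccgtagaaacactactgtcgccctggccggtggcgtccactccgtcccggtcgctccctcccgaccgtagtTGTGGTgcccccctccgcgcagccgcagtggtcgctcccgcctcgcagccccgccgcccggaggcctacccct
*Kdm1a* promoter: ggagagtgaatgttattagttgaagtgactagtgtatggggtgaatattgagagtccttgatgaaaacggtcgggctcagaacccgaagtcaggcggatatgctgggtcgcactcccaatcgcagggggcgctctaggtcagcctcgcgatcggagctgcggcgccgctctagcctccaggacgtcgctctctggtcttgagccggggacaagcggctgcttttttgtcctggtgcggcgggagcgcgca

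Among the acetyltransferases, *Crebbp* (chr16:4081328-4213997, minus strand) had a promoter peak of 6.64, 6.14, 6.85 and 6.06 in the 2 SMC and then the 2 non-SMC lines, at percentiles 90.0, 90.0, 78.7 and 83.8. *Ep300* (chr15:81585351-81652077, plus strand) had one of 6.00, 6.49, 6.37 and 3.82, at percentiles 87.0, 91.2, 75.6 and 65.2. For both paralogs the SMC lines ranked higher in their lists than the non-SMC lines, although the fold enrichments themselves overlapped. *Kmt2d* (chr15:98831669-98871204, minus strand), the methyltransferase of enhancers, showed the opposite order at a low fold enrichment. It had no peak on the TSS in any line, and its highest promoter peak, about 1 kb upstream, reached 2.38, 2.73, 3.56 and 3.71, at percentiles 4.65, 24.9, 46.4 and 64.4. The median local background of the *Kmt2d* peaks was 2.45, 2.08, 2.85 and 2.67 times that of the genome, the highest of the members in every library. Over the genome background the summit pileup of this peak was 8.77, 6.50, 11.4 and 14.1, beside 6.58, 9.75, 12.8 and 7.83 at the *Ezh1* promoter.

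These orders were read against all regions shared by the 4 libraries. In the 10 windows, 22 merged regions had a peak in all 4. At 14 of them the highest summit lay under a peak of every library, and at the others the peaks of a region were joined by merging. Of the 22, 6 ranked higher in both SMC lines and 1 in both non-SMC lines. In the windows of all protein-coding genes the shares were 31.9% and 15.1% of shared regions, and the members' 6 of 22 is no larger than the first. The 6 were the *Hdac2*, *Crebbp* and *Ep300* promoters, an intron of *Crebbp*, an exon of *Ep300* and a region 9946 bp upstream of the *Kmt2d* TSS in an exon of *Rhebl1*. The highest summit lay under the peaks of only 2 libraries at the *Ep300* promoter and exon, and of 3 at the *Crebbp* intron. At the *Ep300* exon neither non-SMC peak covered that summit, so the ranks there compare adjacent sites. The 1 was the *Kmt2d* upstream region, of low fold enrichment in every library. The widest gap in either direction was at the *Crebbp* intron, described below.

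In the RefSeq table of sequences from 250 bases before to 50 bases after gene starts, 9 members were matched (all but *Hdac1*), among 16522 protein-coding genes. Their median GC content was 64.3%, beside 57.0% for all, and their median ratio of observed to expected CpG was 0.999, beside 0.598. The E2F letters (TTTCGCGC, TTTGGCGC or TTCCCGCC, on either strand) occurred in the *Ezh2* sequence alone, beside 3.98% of all promoters. The RUNX letters TGTGGT or TGCGGT occurred in *Ezh1*, *Ezh2* and *Hdac2* (21.6% of all promoters), and the SOX letters ACAAAG or ACAATG in *Ezh2* and *Kmt2d* (25.3%). The AP-1 letters TGACTCA (4.58%), the TEAD letters GGAATG (13.2%) and the E-box CAGCTG (15.2%) occurred in no member sequence. None of these motifs contains another, and a match or its absence describes only the letters in the window.

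**Figure D2:**
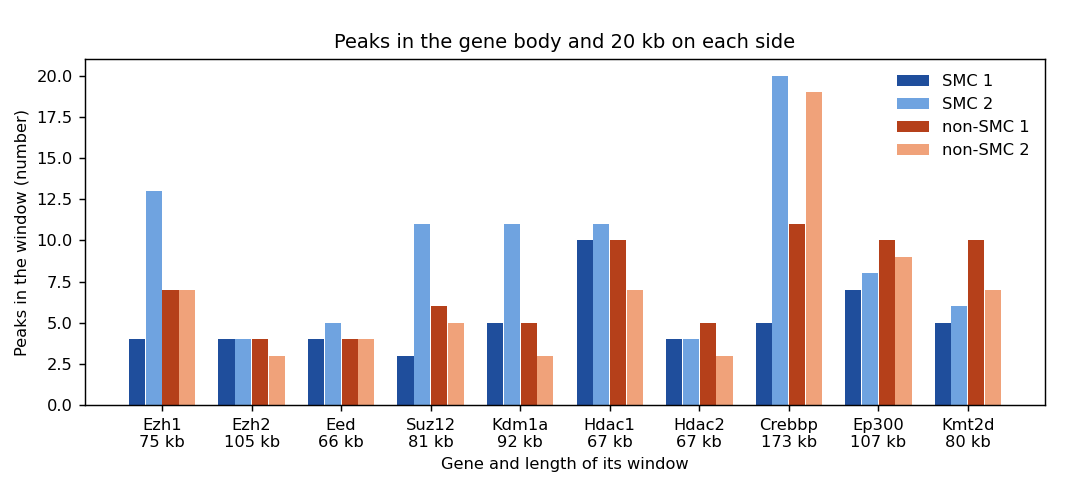
The number of peaks in each window, the gene body and 20 kb on each side, is shown for the 4 libraries, with the window length under the gene name. *Ep300* and *Kmt2d* had more peaks in both non-SMC lines than in either SMC line, and SMC line 2 had the most peaks or shared the most in 7 of the 10 windows.

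Over whole windows the lines of one type often differed from each other more than the types did. *Crebbp*, in the longest window of 173 kb, had 5 and 20 peaks in SMC lines 1 and 2 beside 11 and 19 in non-SMC lines 1 and 2. *Kdm1a* had 5, 11, 5 and 3 peaks, *Suz12* 3, 11, 6 and 5, and *Ezh1* 4, 13, 7 and 7. In each of these 4 windows SMC line 2, the deepest library, had the most. *Ezh2* had 4, 4, 4 and 3 peaks, *Eed* 4, 5, 4 and 4, and *Hdac2* 4, 4, 5 and 3, with hardly a difference between libraries. *Hdac1* had 10, 11, 10 and 7. *Ep300* had 7 and 8 peaks in SMC beside 10 and 9 in non-SMC, and *Kmt2d* 5 and 6 beside 10 and 7. These 2 of 10 windows had more peaks in both non-SMC lines than in either SMC line, as did 13.6% of the windows of all genes, and 0 of 10 had more in both SMC lines, beside 13.1%. With lists of equal length 0 of 10 windows had more peaks in both non-SMC lines, beside 14.9% of all windows, and after thinning to a common depth again 0 of 10, beside 19.0%. Past a −log10 q of 5 the non-SMC excess was at *Ezh2* and *Kdm1a* instead (2 of 10, beside 24.0% of all windows), and *Crebbp* had 3 such peaks in each SMC line and 2 in each non-SMC line (1 of 10, beside 3.26%). Past that threshold *Ep300* and *Kmt2d* had no excess in either direction.

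Merging the 4 lists wherever peaks overlapped by at least 1 base left 175 regions in the 10 windows. Of these, 126 (72.0%) had a peak in a single library, 50 of them in SMC line 2, and 22 (12.6%) had one in all 4, beside 4.89% of the regions in the windows of all protein-coding genes. Of the 22 shared regions, 12 were no more than 3 kb from a member's TSS, 6 were as close to that of a neighboring gene such as *Plekhh3*, *Hikeshi* or *Trap1*, and 4 were farther away. SMC-only regions numbered 5 (2.86%, beside 4.28%) and non-SMC-only regions 7 (4.0%, beside 7.17%), so both shares were below those of all windows. Of the 34 regions formed by peaks past a −log10 q of 5, 1 was SMC-only and 2 were non-SMC-only, beside 5.58% and 19.7% of all such regions.

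**Figure D3:**
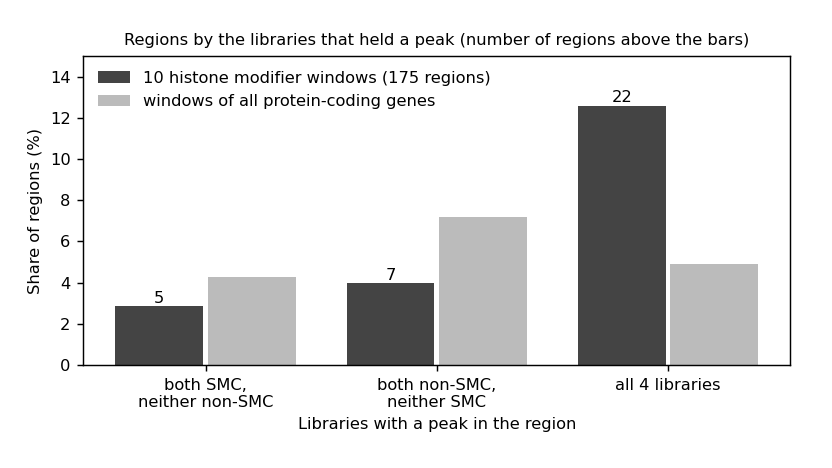
The share of merged regions that were SMC-only, non-SMC-only or held a peak in all 4 libraries is shown for the 10 windows (dark, 175 regions) and for the windows of all protein-coding genes (light). The members exceeded the background for shared regions, 12.6% beside 4.89%, and lay below it for both of the other patterns.

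The non-SMC-only region with the highest mean percentile (90.0) lay in an intron of *Kdm1a*, 32491 bp downstream of the TSS, at chr4:136569957-136570460. Its peak had a fold enrichment of 12.9 (summit pileup 32) for non-SMC line 1 and 6.10 (pileup 9) for non-SMC line 2. Neither SMC line had a peak there, but SMC line 1 had a weak one of 3.43 that began 188 bases beyond the end of the region. A second intronic region of *Kdm1a*, 4080 bp from the TSS at chr4:136598525-136598859, had peaks of 7.95 and 7.16 in non-SMC lines 1 and 2 (percentiles 83.2 and 88.7), with the nearest SMC peak 1172 bases away. These 2 regions were the non-SMC-only regions that remained past a −log10 q of 5, and both remained after all libraries were thinned to a common depth. The median local background of the *Kdm1a* peaks was between 1.00 and 1.18 times that of the genome in the 4 libraries.

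The second non-SMC-only region by percentile (87.4) lay in the window of *Suz12* but in an intron of its neighbor *Crlf3*, at chr11:80050066-80050466. Its peak was one of the highest of non-SMC line 1, at 17.0 and percentile 99.3, and reached 4.84 and percentile 75.6 in non-SMC line 2. The remaining 2 that the naming rule took were weaker. An intron of *Ezh1* at chr11:101212002-101212356 had peaks of 6.44 and 4.88, and an intron of *Lck* in the *Hdac1* window at chr4:129558009-129558308 had peaks of 3.46 and 3.05. Another 2, near *Suz12* and in *Kmt2d*, had peaks between 2.67 and 3.74. The 3 highest are shown for 100 bases on each side of their highest summit, on the plus strand of GRCm38, because they carry the non-SMC side of the comparison. Capitals mark the AP-1 letters TGACTCA or their reverse complement TGAGTCA, the TEAD letters GGAATG and the RUNX letters TGTGGT.
*Kdm1a* intron, chr4:136570132-136570332: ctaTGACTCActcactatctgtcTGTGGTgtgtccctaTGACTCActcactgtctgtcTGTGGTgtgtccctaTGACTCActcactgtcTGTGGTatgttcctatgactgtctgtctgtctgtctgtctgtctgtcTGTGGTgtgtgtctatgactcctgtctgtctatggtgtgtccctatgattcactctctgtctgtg
*Crlf3* intron near *Suz12*, chr11:80050113-80050313: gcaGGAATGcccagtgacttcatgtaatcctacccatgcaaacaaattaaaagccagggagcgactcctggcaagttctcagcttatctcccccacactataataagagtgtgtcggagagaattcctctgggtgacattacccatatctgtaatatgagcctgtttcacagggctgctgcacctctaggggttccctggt
*Kdm1a* intron near the TSS, chr4:136598543-136598743: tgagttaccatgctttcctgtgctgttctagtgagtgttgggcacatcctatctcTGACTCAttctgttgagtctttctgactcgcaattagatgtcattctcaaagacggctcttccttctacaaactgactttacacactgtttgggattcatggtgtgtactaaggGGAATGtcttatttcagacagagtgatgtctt
The first *Kdm1a* sequence is made of similar short units in a row, in which the AP-1 letters came 3 times and the RUNX letters 4 times, so its matches are not independent of each other. The sequence near the *Kdm1a* TSS held 1 AP-1 and 1 TEAD match and the *Crlf3* sequence 1 TEAD match. In all, 2 of the 7 non-SMC-only regions held the AP-1 letters, beside 45.0% of the non-SMC-only regions in the windows of all genes, and 2 held the TEAD letters, beside 18.8%. RUNX letters were in 1 of 7, beside 30.8%, and SOX letters in 0 of 7, beside 26.4%.

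The 5 SMC-only regions were lower in their lists. The first by mean percentile (67.7) lay 8117 bp upstream of the *Ep300* TSS, outside protein-coding genes, at chr15:81577116-81577305, with a fold enrichment of 3.43 in SMC line 1 and 4.73 in SMC line 2. The next lay in an intron of *Kdm1a* at chr4:136565021-136565227, with 3.77 and 3.55, so that *Kdm1a* held regions of both kinds. The third lay in the first part of *Suz12*, 563 bp from the TSS at chr11:79993559-79994005, with 3.04 and 5.56. It was separated by 210 bases from the TSS peak that all lines shared. An intron of *Hdac1* at chr4:129517035-129517186 had 2.59 and 3.37, and an intron of *Trap1* in the *Crebbp* window at chr16:4062324-4062557 had 3.39 and 2.62. In SMC line 1 the summit pileups of these 5 were 4 or 5. None of the 5 reached a −log10 q of 5 in both SMC lines, and 4 of them remained after thinning. Some calls were far below that threshold. The −log10 q was 0.460 at the *Hdac1* region in SMC line 1 and 0.632 at the *Trap1* region in SMC line 2. The SOX letters were in 1 of 5, beside 38.4% of the SMC-only regions in the windows of all genes, and the RUNX letters in 2 of 5, beside 16.2%, whereas the AP-1 letters were in 0 of 5, beside 3.82%. The first 2, which do not touch an exon, are shown in the same way, with the SOX letters ACAAAG or their reverse complement CTTTGT in capitals.
Upstream of *Ep300*, chr15:81577134-81577334: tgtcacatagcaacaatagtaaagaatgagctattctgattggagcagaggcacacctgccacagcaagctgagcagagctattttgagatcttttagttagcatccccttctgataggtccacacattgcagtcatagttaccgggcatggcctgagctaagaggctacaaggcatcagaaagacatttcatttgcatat
*Kdm1a* intron, chr4:136565004-136565204: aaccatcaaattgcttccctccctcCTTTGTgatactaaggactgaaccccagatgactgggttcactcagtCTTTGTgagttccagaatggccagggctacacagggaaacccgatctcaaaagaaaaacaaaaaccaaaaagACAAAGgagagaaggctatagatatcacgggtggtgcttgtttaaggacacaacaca

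One SMC-biased region did not meet the SMC-only rule, and was chosen after its values were seen. It lay in an intron of *Crebbp*, 53240 bp from the TSS, at chr16:4160370-4161354. The peak had a fold enrichment of 9.73 in SMC line 1 and 9.54 in SMC line 2, at percentiles 97.3 and 97.0, higher than the *Crebbp* promoter in the same libraries. In non-SMC line 1 the peak over this summit had 2.82 (percentile 22.8). Non-SMC line 2 had no peak over the summit, and its peak in the merged region, of 3.66 (percentile 61.1), lay beside it at chr16:4160948-4161354. That peak overlapped the end of the SMC line 1 peak, chr16:4160370-4161075, and shared 1 base with that of SMC line 2. The summit pileups were 14 and 27 in SMC and 6 in non-SMC line 1. The difference of mean percentiles over the merged region, 55.2, which includes the peak of non-SMC line 2, was the largest among the 22 shared regions. Past a −log10 q of 5 the region had a peak in the SMC lines alone. Its sequence, 100 bases on each side of the highest summit, held a match to the SOX letters (CATTGT, the reverse complement of ACAATG), as did 15.3% of all shared regions.
*Crebbp* intron, chr16:4160657-4160857: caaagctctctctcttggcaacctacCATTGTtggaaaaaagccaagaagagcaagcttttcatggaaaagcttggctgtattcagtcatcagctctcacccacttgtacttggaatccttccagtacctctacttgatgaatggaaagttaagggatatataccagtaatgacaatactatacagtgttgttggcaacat

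**Figure D4:**
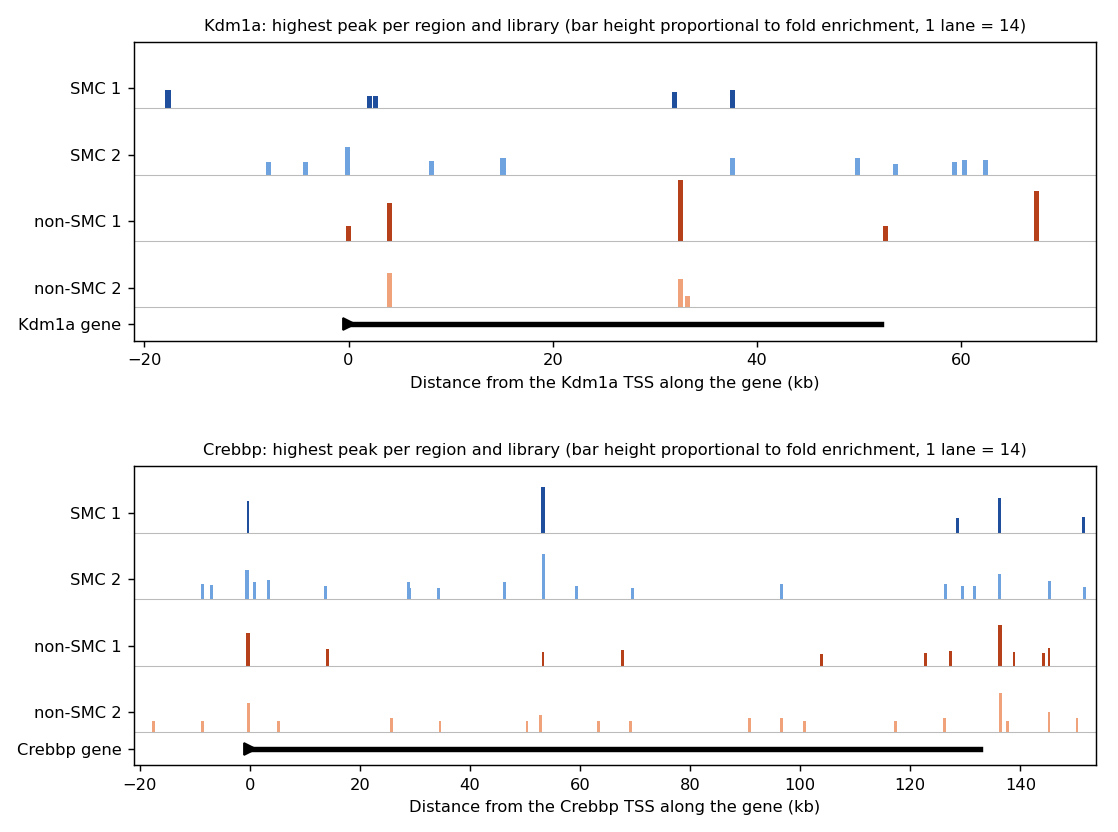
The highest peak per merged region and library is drawn along *Kdm1a* (top) and *Crebbp* (bottom) by its distance from the TSS in kb, with bar height proportional to fold enrichment and bars widened to at least 0.5 kb so that they can be seen. Both non-SMC lines had peaks 4080 and 32491 bp inside *Kdm1a* that both SMC lines lacked. The peak 53240 bp inside *Crebbp* reached 9.73 and 9.54 in SMC and 2.82 in non-SMC line 1. Non-SMC line 2 had a peak of 3.66 beside the summit, which overlapped the SMC peaks.

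Other histone modifier genes, in the groups named below, were counted from a list of 63 genes, all of them annotated. A promoter peak was present in all 4 libraries at 54 of the 63 (85.7%), beside 48.7% of all genes. By group this was 7 of 8 genes for PRC2 accessory subunits, 10 of 12 for PRC1, which binds the PRC2 mark, 14 of 15 for the deacetylase and KDM1A complexes, 9 of 11 for other acetyltransferases and 14 of 17 for KMT2 complexes and demethylases. None of the 63 promoters was SMC-only or non-SMC-only, patterns that took only 3.08% and 2.45% of the promoters of all genes. Both non-SMC lines had more peaks in the window than either SMC line at 5 of the 63, beside 13.6% of all windows, and both SMC lines had more at 13 of the 63, beside 13.1%, of which 5 were in the deacetylase and KDM1A complexes.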

How the data were processed

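The values analyzed were 4 ATAC-seq peak lists, 1 per cell line, 2 SMC and 2 non-SMC. The authors used Bowtie2 2.3.4 for mapping to mm10, sambamba to discard duplicate reads and MACS2 2.1.1 for peak calling, library by library. The settings of the peak calling are not given in the sources used here. Each deposited peak has a summit position, a fold enrichment (the ratio of pileup to local background) and, at the summit, −log10 p-values and −log10 q-values. Only chromosomes 1 to 19, X and Y were used, without the other 61 to 85 peaks per library.

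The pair of fold enrichment and p-value gave back each pileup and local background, since MACS2 takes p from a Poisson distribution and adds 1 to both terms of the ratio. All but 3 to 5 peaks per library were recovered, and the step was tested on simulated data. Windows, promoters (within 3 kb of the 5′ end of the gene) and merged regions were matched on 1 shared base or more, and counts over members were set beside those over all 21938 protein-coding genes. The members, gene lists and motifs were chosen with earlier results of these data known. All 10 members are named. A marker gene of the sorted cells is not reported here. Of the regions open in one type alone, the 5 per direction with the highest mean percentile are described singly, and sequence is given for up to 3 of each and for 3 promoters. Neither lines nor library preparations were replicated within a line. The alternatives were a minimum −log10 q of 5, the 91057 top peaks of every list, thinning to 50% of the depth of the shallowest library, each library left out, other flanks, promoters and overlaps, and a mean within line pairs. The labels number the lines of each type 1 and 2. Python 3.11.15, NumPy 2.4.6, pandas 2.3.3, SciPy 1.17.1, pyfaidx 0.9.0.4 and Matplotlib 3.10.9 were used.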

Additional observations from a re-analysis of the deposited data

Results flagged for a closer look

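The share of peaks in the 10 windows differed in opposite directions between lines of equal number. SMC minus non-SMC was -0.00615 percentage points for the lines numbered 1 and 0.00835 for the lines numbered 2. The difference between the pairs was not tested. In both pairs the deeper library had the larger share.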

How the results depend on the processing

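Of 76 comparisons with another setting, 44 stayed close to the values reported and 32 moved. For the share difference, close meant a change below the SD between lines of a type, 0.00551 percentage points. For counts it was set by the ratio to the value reported. The sign of the share difference was not stable. It was -0.00380 and -0.00237 with flanks of 0 kb and 3 kb, -0.00110 without SMC line 2 and -0.00395 without non-SMC line 2. Without peaks near the TSS of another gene it was -0.000755. In the other settings it stayed above 0. It changed by more than that SD only with a −log10 q of at least 5, to 0.00936 percentage points. That threshold left 1 SMC-only and 2 non-SMC-only regions, 1 member with more peaks in both SMC lines, 3 promoters and 2 TSS with a peak in all 4 libraries. With lists shortened to equal length, and after thinning, 0 members had more peaks in both non-SMC lines, so the excess at *Ep300* and *Kmt2d* was lost. Thinning also left 4 non-SMC-only regions and 5 promoters with a peak in all 4. A flank of 0 kb or 3 kb gave 3 SMC-only and 4 non-SMC-only regions and 1 member with more peaks in both non-SMC lines, and 2 or 1 members with more in both SMC lines. A flank of 50 kb gave 11 and 15 regions, 1 member and 2 members. Leaving out one library gave 5 to 56 SMC-only regions (56 without SMC line 1, 26 without SMC line 2, 8 without non-SMC line 1), 8 to 36 non-SMC-only regions (12 without SMC line 2, 35 and 36 without non-SMC lines 1 and 2), 2 to 5 members with more peaks in both non-SMC lines (5 without SMC line 2), 0 to 6 with more in both SMC lines (6 without SMC line 1, 4 without non-SMC line 1) and 4 to 7 with a TSS peak in all libraries (7 without SMC line 1). With 1 library fewer, fewer lines have to agree for a region or window to count. For the other flanks and for a library left out, no share over all genes was computed. These counts therefore have no background beside them. The mean within pairs of lines of equal number was 0.00110 percentage points. It must equal the unpaired difference when each type has as many lines, so it is no check, although it is counted among the 44. The labels do not say that lines of equal number belong together. No result comes from a fit. SMC line 1 and non-SMC line 2 were the shallower libraries of their type. A peak missing from a list was not called there, which does not show that the site was closed.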
